A study of Mus musculus with 6 samples.

Results

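Cytochrome P450 genes of families 1 to 4 were examined in the kidneys of cisplatin-treated mice with and without functional TRPM2, a calcium-permeable cation channel. A gene was a member if its row of the deposited count table was annotated as protein-coding and its name held Cyp, a family number from 1 to 4, a subfamily letter and a gene number. This gave 80 of 54532 genes in the table, of which 22046 are protein-coding. The members belong to 21 subfamilies, and family 2 is the largest with 48 genes, followed by 20 of family 4, 9 of family 3 and 3 of family 1.

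P450 enzymes are haem-containing monooxygenases, most of them anchored in the endoplasmic reticulum, where P450 oxidoreductase and cytochrome b5 pass them electrons. Members of these families oxidise drugs and other foreign compounds, steroids, and fatty acids such as arachidonic acid, whose P450 products act on renal vessels and on salt transport. In the kidney the enzymes are known mainly from the proximal tubule, the segment that takes up cisplatin, and in mice many of the genes stand in tandem clusters of close copies.

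RNA came from the kidneys of 3 WT and 3 Trpm2-/- male mice of the C57BL/6J strain. Their age is 6 to 8 weeks in the labels, and the methods of the study give an older range. Every mouse had received a single intraperitoneal dose of cisplatin at 18 mg/kg and was killed after 72 h, so the groups differ in genotype and share the treatment. The Trpm2-/- allele is carried in all cells and leaves a protein that lacks transmembrane domains 3 and 4 and forms no working channel. WT mice were bought and the Trpm2-/- line was introduced from elsewhere, and littermates are not mentioned. Untreated kidneys were not analysed here, so no value below measures the effect of cisplatin itself. Libraries of WT mice carry the numbers 1, 2 and 3, those of Trpm2-/- mice 1, 2 and 4, and values below follow this order.

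Total counts on genes were 14053307 to 17150089 per library, and a gene with 0 counts could have a level of up to 3 counts, or 0.184 to 0.205 CPM (counts scaled to TMM-normalised library size). This limit covers counting error only. Over all genes, the chi-square of counts per degree of freedom was 32.1, 36.7 and 32.6 between Trpm2-/- replicates 1 and 2, 1 and 4, and 2 and 4. Between pairs of WT libraries it was 13.5 to 18.7. WT replicate 1 and Trpm2-/- replicate 4 stood apart from the other libraries of their genotype in the values that follow. WT replicate 1 had 77.9 CPM summed over 7 urothelial markers, against 14.1 and 23.1 CPM in the other WT libraries, and 3.95 CPM of the fat cell gene Adipoq, which had 0 counts in the other WT libraries. Trpm2-/- replicate 4 had 478 CPM summed over 4 podocyte markers, against 125 to 167 CPM in the other 5 libraries, and 11.04% of its counts fell on the mitochondrial genome, against 7.91% and 7.95% in the other Trpm2-/- libraries and 4.43% to 4.72% in the WT libraries.

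The P450 genes of these families were lower in Trpm2-/- kidneys as a sum and in 11 of the 36 members with enough counts to be tested. Those that fell included the most abundant members, the fatty acid hydroxylases Cyp4a10 and Cyp4a14, and also Cyp4b1, the epoxygenase gene Cyp2j5, Cyp2e1, Cyp2a4 and 4 genes of the Cyp2d cluster, and edgeR called no member higher, while DESeq2 called Cyp4a32 and Cyp4f17 higher. Summed over the 80 members, FPKM (fragments scaled to gene length and to library total) was 2029, 2589 and 2756 in WT libraries and 1192, 889 and 1210.0 in Trpm2-/- ones. The groups did not overlap, and the mean fell from 2458 ± 381 to 1097 ± 181 (SD, n = 3). By counts, the members took 0.563% to 0.712% of all reads on genes in WT libraries and 0.256% to 0.348% in Trpm2-/- libraries.

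Genes were called with edgeR's quasi-likelihood test at a Benjamini-Hochberg adjusted p under 0.05 over the 15816 genes that passed a filter on low counts. The 11 members called lower were 30.6% of the members tested, and of all genes tested 12.0% were called in either direction and 7.28% were called lower. No member was called higher by edgeR, against 4.74% of all genes. At an unadjusted p under 0.05, edgeR had 16 members lower and 3 higher (Cyp3a13, Cyp4a32 and Cyp4f17), against 14.3% and 14.0% of all genes. At an adjusted p under 0.05, DESeq2 called 14 members lower and 2 higher, where 2539 of the 15816 genes were called. The threshold of the study, an absolute log2 fold change above 1 with a p taken as unadjusted under 0.05, had 11 members lower and 0 higher, where 4.10% and 3.50% of all genes passed it. Of these 11 members, 8 were also called at the adjusted p.

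Of the 36 tested members, 28 had a log2 fold change below 0 and 8 above 0, and the median was -0.50, against 0.02 over all genes tested. All 3 Trpm2-/- libraries lay below all 3 WT libraries for 14 members and above them for 3, and the remaining 19 overlapped, while the same held for 16.8% and 16.7% of all genes. Of the 10 members with the highest mean FPKM, 8 were called lower. Without WT replicate 1 and Trpm2-/- replicate 4, a choice made after seeing the data, 14 members were called, 13 lower and 1 higher, and 9 of them were among the 11. Over all genes, 1610 of 15958 tested were called there, against 1902 of 15816 with all libraries. The largest change on leaving out a single library was without Trpm2-/- replicate 4, when 15 members were called, 13 lower and 2 higher. The smallest numbers were 9 without WT replicate 2 and 9 without WT replicate 3. Calls over all genes in these refits were, in the same order, 1813 of 16251, 697 of 16421 and 630 of 16338.

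**Figure D1:**
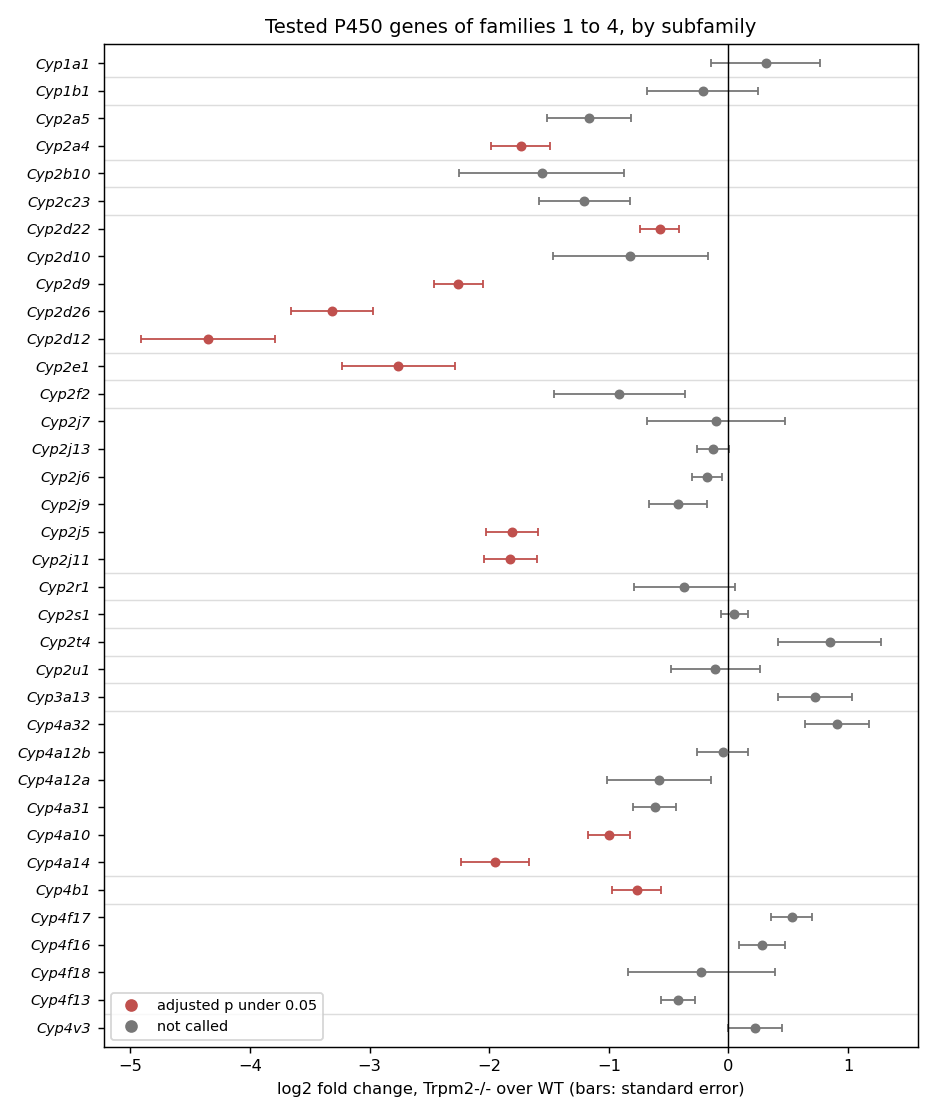
Log2 fold change of the 36 tested P450 genes, Trpm2-/- over WT, on the horizontal axis, with the genes ordered by subfamily and bars for the standard error of the edgeR fit. The 11 genes in red were called lower and lie between -4.35 and -0.58, and the grey genes, which were not called, lie between -1.56 and 0.91.

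Markers of the proximal tubule moved with these genes. All 12 markers on the list were called lower, against 7.28% of all genes, with a median log2 fold change of -1.74. Their summed level was 5347 to 6904 CPM in WT libraries and 2113 to 2681 CPM in Trpm2-/- libraries. Their part in the P450 result was not tested, and in bulk kidney RNA fewer cells of a type and less RNA per cell cannot be told apart. Of 5 tubular injury markers, Krt20 was called higher (log2 fold change 0.79), against 4.74% of all genes. The 6 markers of the adrenal cortex, a gland beside the kidney that is rich in other P450 genes, summed to 4.19 to 5.52 CPM in WT and 3.61 to 5.19 CPM in Trpm2-/- libraries, nearly all of it Star, which was not called (-0.05), and the steroid-forming Cyp11b1 and Cyp21a1 had at most 0.123 and 0.247 CPM. The 5 hepatocyte markers, all tested, summed to 159 to 252 CPM in WT and 105 to 268 CPM in Trpm2-/- libraries. Of these, Serpina1a (-1.11) and Ttr (-1.08) were called lower and 0 higher by edgeR, Fgb had 1.25, and albumin (Alb), the defining one, was at or below 1.35 CPM in every library. The part of these markers in the P450 result was not tested.

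The Cyp4a and Cyp4b genes encode hydroxylases of the end of fatty acid chains, and Cyp4a14 and Cyp4a10 are textbook targets of the lipid-sensing receptor PPAR alpha. The Cyp4a subfamily held most of the P450 transcript in both genotypes, 58.6% ± 1.40 of the summed FPKM in WT and 57.6% ± 2.54 in Trpm2-/- mice (SD, n = 3). Cyp4a14 (chromosome 4, 115486200 to 115496142) had 463, 672 and 624 FPKM in WT replicates 1, 2 and 3 and 189, 88.4 and 182 FPKM in Trpm2-/- replicates 1, 2 and 4. Its groups were far apart, with Trpm2-/- replicate 2 lowest. The log2 fold change was -1.95 (standard error 0.287, edgeR adjusted p = 0.00397), a 3.86-fold difference in level.

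Cyp4a10 (chromosome 4, 115518264 to 115533649) had 477, 590.3 and 653 FPKM in WT libraries and 319, 251 and 299.7 FPKM in Trpm2-/- libraries. It fell with a log2 fold change of -0.995 (standard error 0.175, edgeR adjusted p = 0.00770), nearer to 0 than that of its neighbour Cyp4a14, a difference that was not tested. Of Cyp4a10, 18.42% of the 75-base windows also occur in other genes, chiefly Cyp4a32. Cyp4a14 was the most abundant member in the mean of WT libraries (586 ± 109.7 FPKM), within the spread of Cyp4a10 (573 ± 89.3 FPKM; SD, n = 3). In the mean of Trpm2-/- libraries Cyp4a10 came first (290.0 ± 34.9 FPKM), before Cyp4b1 (193 ± 40.9), Cyp4a31 (165 ± 36.8) and Cyp4a14 (153 ± 56.1), and the last 3 lie within each other's spread. Cyp4a14 thus took 40.6% ± 3.30 of the summed FPKM of its subfamily in WT and 23.5% ± 4.65 in Trpm2-/- mice (SD, n = 3).

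Cyp4b1 (chromosome 4, 115624725 to 115647723), which hydroxylates fatty acids and activates some protoxins, ends the same cluster of 10 genes over 541 kb. It had 254, 392 and 333 FPKM in WT libraries and 239, 161 and 180.0 FPKM in Trpm2-/- libraries, so WT replicate 1 and Trpm2-/- replicate 1 lay close together. Its call was a marginal decrease, with a log2 fold change of -0.77 (standard error 0.209, edgeR adjusted p = 0.0423), and it was lost without WT replicate 2 (-0.62), WT replicate 3 (-0.76), Trpm2-/- replicate 2 (-0.66) or Trpm2-/- replicate 4 (-0.70).

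The remaining Cyp4a genes did not pass the test. Cyp4a31 had 251, 230.5 and 272 FPKM in WT libraries and 169, 126 and 199.7 FPKM in Trpm2-/- libraries, with a log2 fold change of -0.62 (edgeR adjusted p = 0.0557). Cyp4a32, a close copy of Cyp4a10 with 97.2% of coding bases identical, went the other way on a low level, with 2.12 to 2.89 FPKM in WT and 3.60 to 5.86 FPKM in Trpm2-/- libraries and a log2 fold change of 0.91 (edgeR adjusted p = 0.0549). Its groups did not overlap, but 27.96% of the distinct 75-base windows of its transcripts also occur in other genes, chiefly Cyp4a10, so its reads can be split wrongly. Cyp4a12a and Cyp4a12b, the arachidonic acid hydroxylases of the male mouse kidney, share 40.84% and 41.32% of their windows and had log2 fold changes of -0.58 and -0.05, with overlapping groups. With all libraries, DESeq2 called Cyp4a31 lower and Cyp4a32 higher, and limma-voom called Cyp4a31 lower. Without Trpm2-/- replicate 4, edgeR called Cyp4a31 and Cyp4a12a lower and Cyp4a32 higher.

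**Figure D2:**
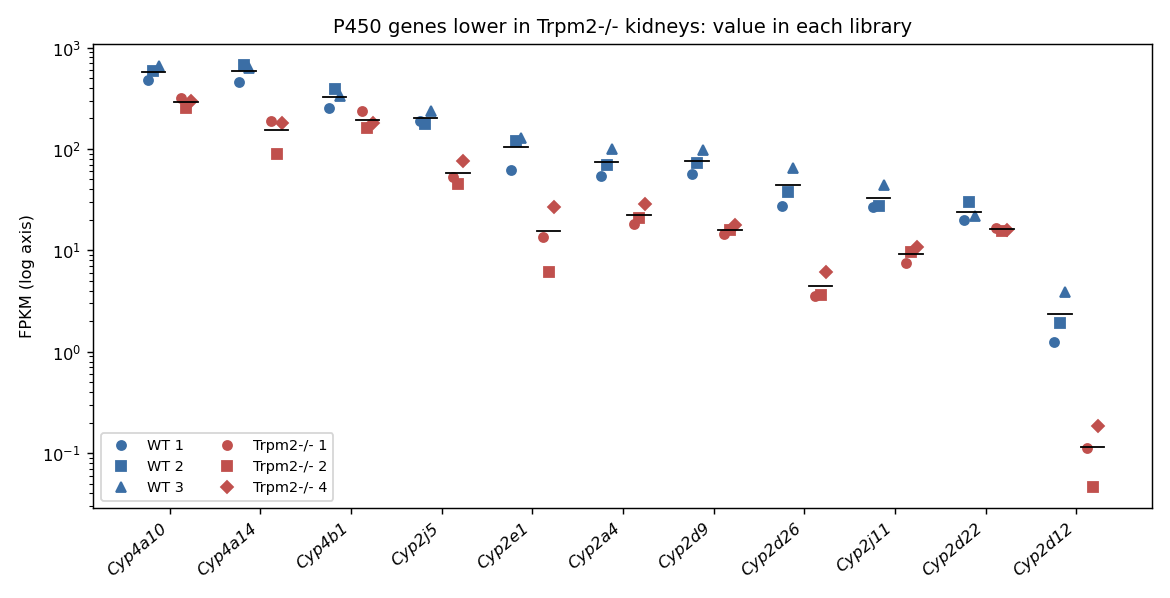
FPKM on a log axis of the 11 P450 genes called lower, with a point for each library (blue for WT, red for Trpm2-/-) and a black line at the mean of each genotype. In every gene the 3 Trpm2-/- libraries lie below the 3 WT libraries; the gap is narrowest for Cyp4b1, with 254 FPKM in the lowest WT and 239 FPKM in the highest Trpm2-/- library, and widest on this scale for Cyp2d12.

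The Cyp2j and Cyp2c genes include epoxygenases of arachidonic acid, and Cyp2j5 is the member of this kind known to be abundant in the mouse kidney. The 8 Cyp2j genes lie in 637 kb of chromosome 4, and 2 of the 6 that were tested were lower in Trpm2-/- kidneys while their neighbours differed little. The 250 bases before the RefSeq start of both called genes and of Cyp2j6, an uncalled neighbour, are shown because these genes of 1 cluster differed in their calls (GRCm38.p6, minus strand, 5′ to 3′, at chr4:96664120-96664369 for Cyp2j5, chr4:96348681-96348930 for Cyp2j11 and chr4:96553652-96553901 for Cyp2j6). Capitals mark the nuclear receptor element AGGTCA and the element AGAACA of the glucocorticoid receptor on either strand, and the match in Cyp2j11 runs over the start, so that only its first bases are shown.
Cyp2j5: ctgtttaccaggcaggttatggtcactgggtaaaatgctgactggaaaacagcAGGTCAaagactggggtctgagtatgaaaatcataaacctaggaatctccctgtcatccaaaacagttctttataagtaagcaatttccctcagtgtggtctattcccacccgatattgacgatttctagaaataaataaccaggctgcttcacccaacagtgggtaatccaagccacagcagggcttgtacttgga
Cyp2j11: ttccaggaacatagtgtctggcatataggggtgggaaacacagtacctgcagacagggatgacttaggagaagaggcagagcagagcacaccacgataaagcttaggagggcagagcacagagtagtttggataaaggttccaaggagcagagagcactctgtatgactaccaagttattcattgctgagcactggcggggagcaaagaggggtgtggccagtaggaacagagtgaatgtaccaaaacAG
Cyp2j6: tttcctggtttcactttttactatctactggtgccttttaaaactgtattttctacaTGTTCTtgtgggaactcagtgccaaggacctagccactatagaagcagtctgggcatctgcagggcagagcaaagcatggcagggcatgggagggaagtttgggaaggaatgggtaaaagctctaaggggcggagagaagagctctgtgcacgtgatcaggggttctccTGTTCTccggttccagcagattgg
AGGTCA was present in 16.26% and AGAACA in 18.97% of all 32851 mouse promoter windows of 300 bases, on both strands, and the motifs can occur in the same window. A match in these letters is a description of the sequence only.

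Cyp2j5 (chromosome 4, 96628773 to 96664154) had 187, 177 and 239 FPKM in WT libraries and 52.5, 44.6 and 76.4 FPKM in Trpm2-/- libraries. Every Trpm2-/- value was less than the lowest WT value by a wide margin, with a log2 fold change of -1.81 (standard error 0.217, edgeR adjusted p = 0.00191). Cyp2j11 (chromosome 4, 96294508 to 96348662) had 26.7, 27.1 and 43.7 FPKM in WT and 7.42, 9.62 and 10.8 FPKM in Trpm2-/- libraries. Its log2 fold change of -1.82 (standard error 0.224, edgeR adjusted p = 0.00217) was almost that of Cyp2j5.

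Cyp2j6, which lies between them, had 18.8, 22.5 and 20.2 FPKM in WT and 19.2, 17.3 and 18.3 FPKM in Trpm2-/- libraries. Those groups overlapped, and the log2 fold change was -0.18 (edgeR adjusted p = 0.396). Cyp2j13 (-0.13), Cyp2j9 (-0.42) and the scarce Cyp2j7 (-0.10) were not called either, and Cyp2j8 and Cyp2j12 had too few counts to be tested. Within each library the FPKM of Cyp2j5 was 9.996, 7.85 and 11.8 times that of Cyp2j6 in WT mice and 2.73, 2.58 and 4.19 times in Trpm2-/- mice. This pair was chosen because its calls differed, so its ratio is given with no test. It was 1 of 4 pairs, each of the most abundant called and uncalled tested genes of a subfamily. The groups overlapped for the ratios of the other pairs, Cyp2a4 to Cyp2a5, Cyp2d9 to Cyp2d10 and Cyp4a10 to Cyp4a31. None of the 75-base windows of Cyp2j5, Cyp2j6, Cyp2j11 or Cyp2j13 occurs exactly in another annotated gene. Reads placed with mismatches were not examined.

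Cyp2c23, the only Cyp2c gene with more than a few counts, encodes an arachidonic acid epoxygenase of the kidney. It had 5.09, 3.99 and 8.55 FPKM in WT and 2.02, 1.64 and 4.05 FPKM in Trpm2-/- libraries, where Trpm2-/- replicate 4 reached just above WT replicate 2. The log2 fold change of -1.21 did not pass the edgeR test (adjusted p = 0.0701), and without Trpm2-/- replicate 4 it was -1.68 and called. With all libraries DESeq2 called Cyp2c23 lower (adjusted p = 0.0121).

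The Cyp2d genes encode oxidases of steroids and of many drugs, and Cyp2d9 is known as a male-predominant testosterone hydroxylase of mouse liver. The 8 genes lie in 424 kb of chromosome 15, all 8 had counts, and 4 of the 5 that were tested were called lower. The summed FPKM of the subfamily was 106, 143 and 190.5 in WT libraries and 35.1, 35.8 and 39.9 in Trpm2-/- libraries, which did not overlap. The 250 bases before the RefSeq start of the 2 called genes with the most transcript that had a RefSeq entry are shown (GRCm38.p6, 5′ to 3′, chr15:82452127-82452376 on the plus strand for Cyp2d9 and chr15:82794246-82794495 on the minus strand for Cyp2d26). Capitals in Cyp2d26 mark GTTAAT, an element of HNF1 factors, on the minus strand of the gene, and AGAACA; none of the 7 motifs searched is in the window of Cyp2d9.
Cyp2d9: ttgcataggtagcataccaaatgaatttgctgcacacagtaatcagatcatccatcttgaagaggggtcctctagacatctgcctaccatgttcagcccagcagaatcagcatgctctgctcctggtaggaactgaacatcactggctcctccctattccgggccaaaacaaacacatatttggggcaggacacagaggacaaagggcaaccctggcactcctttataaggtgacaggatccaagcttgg
Cyp2d26: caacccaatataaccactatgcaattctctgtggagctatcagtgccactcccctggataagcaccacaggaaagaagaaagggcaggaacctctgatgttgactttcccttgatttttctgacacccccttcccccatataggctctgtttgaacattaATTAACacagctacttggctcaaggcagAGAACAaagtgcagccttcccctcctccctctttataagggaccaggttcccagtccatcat
GTTAAT was present in 7.10% of all promoter windows and in 10 of the 65 members with an entry. Of these, Cyp2d26 and Cyp2a4 were called lower, and Cyp2a5 (-1.16) and Cyp4a32 (0.91) were tested and not called. The others, Cyp2c40, Cyp2c68, Cyp2c69, Cyp4a30b, Cyp4f14 and Cyp4f40, had too few counts to be tested. The start that RefSeq gives for Cyp2d9 lies within the bounds of the gene in the deposited table.

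Cyp2d9 (chromosome 15, 82433437 to 82456845) had 56.8, 72.9 and 98.6 FPKM in WT and 14.5, 15.9 and 17.7 FPKM in Trpm2-/- libraries. The Trpm2-/- values were close to each other, and the log2 fold change was -2.26 (standard error 0.205, edgeR adjusted p = 0.00126), the smallest adjusted p among the members. Of its 75-base windows, 12.86% also occur in other genes, chiefly the predicted gene Gm46501. Cyp2d26 (chromosome 15, 82790101 to 82794294) had 27.6, 37.9 and 65.6 FPKM in WT and 3.52, 3.64 and 6.14 FPKM in Trpm2-/- libraries. It differed 9.95-fold, with a log2 fold change of -3.31 (standard error 0.343, edgeR adjusted p = 0.00131).

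Cyp2d12 (chromosome 15, 82555072 to 82560403) was scarce, with 89, 134 and 284 counts in WT libraries and 8, 3 and 13 counts in Trpm2-/- libraries. Its log2 fold change of -4.35 (standard error 0.560) was the lowest of all members and is the least precise among the called ones. It was -1.52 with limma on log2(FPKM + 1), a scale that shrinks changes of scarce genes, where Cyp2d26 was lowest. Cyp2d22 (chromosome 15, 82370527 to 82380260), often compared with the human drug oxidase CYP2D6, had 19.95, 29.8 and 21.7 FPKM in WT and 16.8, 15.7 and 15.8 FPKM in Trpm2-/- libraries. Its log2 fold change of -0.58 (standard error 0.162) was just past the threshold at an edgeR adjusted p of 0.0483. The call of Cyp2d22 was lost without WT replicate 2 (-0.39), WT replicate 3 (-0.64), Trpm2-/- replicate 1 (-0.61), Trpm2-/- replicate 2 (-0.56) or Trpm2-/- replicate 4 (-0.55), and with DESeq2's size factors, upper-quartile scaling or library sizes without the mitochondrial genome. Its share of the summed Cyp2d FPKM was 17.0% ± 4.97 in WT and 43.8% ± 4.04 in Trpm2-/- kidneys (SD, n = 3). Cyp2d10 was not called (-0.82, overlapping groups) and shares 22.27% of its windows with other genes.

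**Figure D3:**
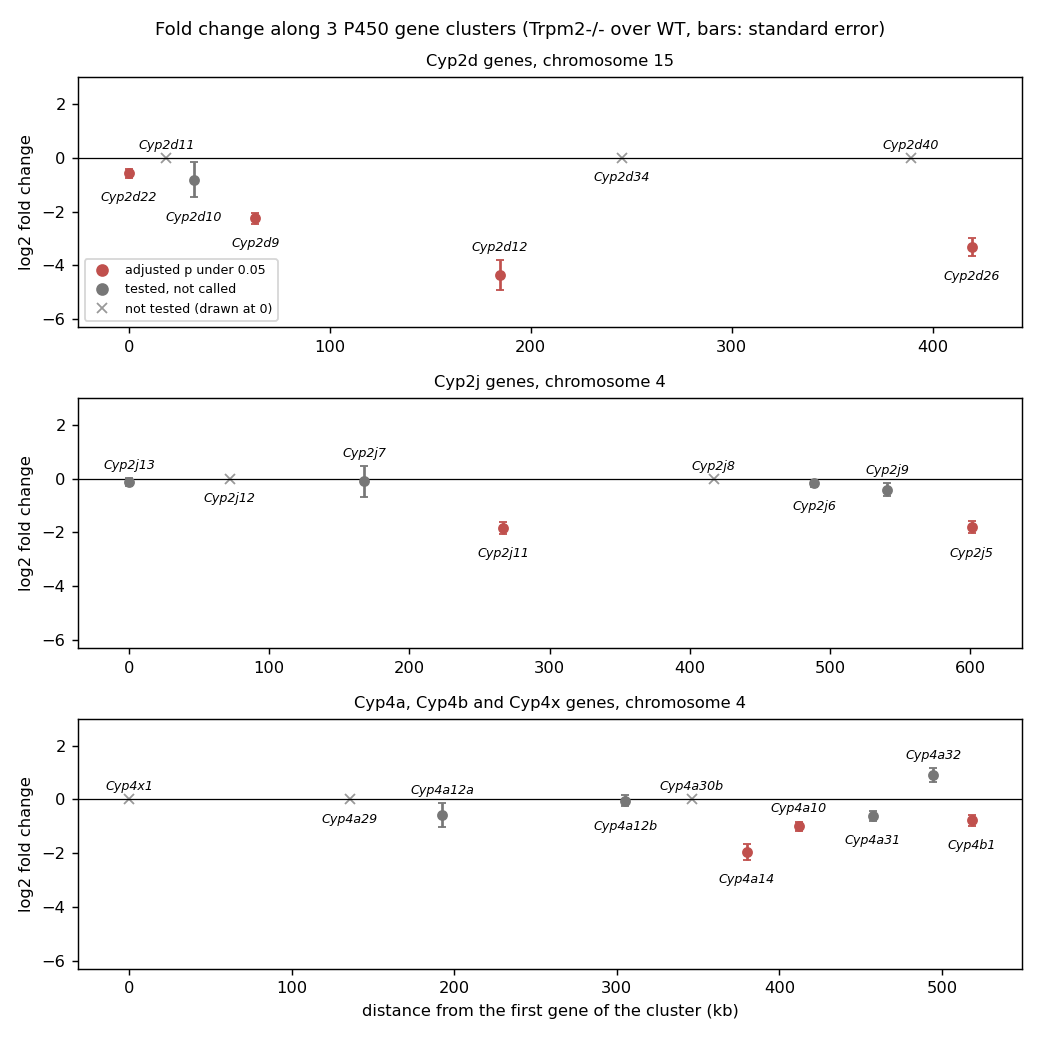
Log2 fold change (vertical axis, bars for the standard error) against distance from the first gene of the cluster in kb, for the Cyp2d genes of chromosome 15, the Cyp2j genes of chromosome 4 and the Cyp4a, Cyp4b and Cyp4x genes of chromosome 4. Genes called lower (red) and tested genes that were not called (grey) occur in all 3 clusters, as with Cyp2j11 at -1.82, Cyp2j6 at -0.18 and Cyp2j5 at -1.81, and crosses at 0 are genes with too few counts.

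Cyp2a4 and Cyp2a5, a steroid hydroxylase and the coumarin hydroxylase of the mouse, are near-identical copies on chromosome 7. Of 1482 coding bases 23 differ, and 22.06% and 22.34% of their 75-base windows also occur in another gene, so how reads were divided between them affects both counts. Coding bases 601 to 690 of each are shown as an example, with the 5 differing bases in capitals (GRCm38, plus strand; exons 4 and 5 at chr7:26309035-26309088 and chr7:26310706-26310741 for Cyp2a4, and at chr7:26837198-26837251 and chr7:26838868-26838903 for Cyp2a5).
Cyp2a4: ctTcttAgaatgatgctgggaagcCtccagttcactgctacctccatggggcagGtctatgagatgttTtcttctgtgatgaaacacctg
Cyp2a5: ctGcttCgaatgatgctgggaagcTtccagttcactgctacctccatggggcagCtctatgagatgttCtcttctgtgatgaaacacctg
In this stretch a read has to cover a capital letter to tell the genes apart.

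Cyp2a4 (chromosome 7, 26307169 to 26315088) had 54.1, 69.2 and 99.7 FPKM in WT and 18.1, 20.9 and 28.5 FPKM in Trpm2-/- libraries. The groups were well apart, with a log2 fold change of -1.74 (standard error 0.244, edgeR adjusted p = 0.00351). Cyp2a5 had 11.3, 13.5 and 22.9 FPKM in WT and 7.41, 3.81 and 10.2 FPKM in Trpm2-/- libraries, which did not overlap but came close, and its log2 fold change of -1.16 was not called (edgeR adjusted p = 0.0599). Cyp2a5 was called lower by DESeq2 with all libraries, and by edgeR without Trpm2-/- replicate 4. Their summed FPKM, which depends less on the division of reads, was 65.4, 82.7 and 123 in WT and 25.5, 24.7 and 38.8 in Trpm2-/- libraries.

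Cyp2e1 (chromosome 7, 140763739 to 140774987), an oxidase of ethanol and other small molecules and the only gene of its subfamily, had 62.3, 121 and 128 FPKM in WT and 13.7, 6.10 and 26.7 FPKM in Trpm2-/- libraries. WT replicate 1 was the lowest WT library, and it still lay above every Trpm2-/- library. The log2 fold change was -2.76 (standard error 0.471, edgeR adjusted p = 0.00693), a 6.77-fold difference, and without Trpm2-/- replicate 4 it was -3.38. By mean FPKM Cyp2e1 had rank 6 among the members in WT kidneys and rank 13 in Trpm2-/- kidneys.

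Cyp2b10, a target gene of the xenobiotic receptor CAR, rested on a single library. It had 0.820, 7.78 and 1.82 FPKM in WT and 1.05, 1.56 and 0.943 FPKM in Trpm2-/- libraries. The log2 fold change of -1.56 (edgeR adjusted p = 0.172) became -0.18 without WT replicate 2. Cyp2f2, known from club cells of the airway, was at 0.508 to 1.00 FPKM in WT and 0.148 to 0.710 FPKM in Trpm2-/- libraries, with overlapping groups.

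Members that the aryl hydrocarbon receptor (AHR) controls in many tissues did not pass the test with all 6 libraries. Cyp1a1, its classical target, was at 0.307 to 0.369 FPKM in WT and 0.258 to 0.694 FPKM in Trpm2-/- libraries. The highest value was that of Trpm2-/- replicate 4, without which the log2 fold change turned from 0.31 to -0.18. Cyp1b1, which also metabolises oestrogens, had 1.10, 2.35 and 1.92 FPKM in WT and 0.978, 0.817 and 2.87 FPKM in Trpm2-/- libraries. Its groups overlapped and its log2 fold change of -0.22 changed sign when WT replicate 2 (0.02), Trpm2-/- replicate 1 (0.03) or Trpm2-/- replicate 2 (0.08) was left out and was -0.99 without Trpm2-/- replicate 4. Without WT replicate 1 and Trpm2-/- replicate 4 together, Cyp1b1 was called lower (-1.24, edgeR adjusted p = 0.0253). Cyp2s1, an extrahepatic P450, was the steadiest of the abundant members with 17.4 to 17.9 FPKM in WT and 17.4 to 19.5 FPKM in Trpm2-/- libraries (log2 fold change 0.05, standard error 0.116). The dioxin response core GCGTG was present 54 bases before the RefSeq start of Cyp1a1 and in 32.39% of all promoter windows.

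Cyp3a13 was the only tested gene of the Cyp3a subfamily, whose other members carry most drug oxidation in the liver. It had 1.98, 2.02 and 1.59 FPKM in WT and 3.46, 1.74 and 4.10 FPKM in Trpm2-/- libraries. Trpm2-/- replicate 2 lay among the WT values, the log2 fold change was 0.72 (edgeR adjusted p = 0.159), and without that library it was 1.00 and called.

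The Cyp4f genes, which inactivate leukotrienes and hydroxylate long fatty acids, had no member called by edgeR, though Cyp4f17 was called higher by DESeq2 (adjusted p = 0.0455). With every gene of at least 1 count tested, edgeR called Cyp4f17 higher and Cyp4f14 and Cyp4f15 lower. That fit also called Cyp2b10, which rested on a single library. The summed FPKM of the Cyp4f genes was 44.1, 53.3 and 45.9 in WT and 53.4, 62.6 and 48.3 in Trpm2-/- libraries, with overlapping groups. Cyp4f17 had 18.7, 25.8 and 18.3 FPKM in WT and 31.6, 33.3 and 26.2 FPKM in Trpm2-/- libraries. All Trpm2-/- values were above the WT values, but its log2 fold change of 0.53 was not called (edgeR adjusted p = 0.0735), and without Trpm2-/- replicate 4 it was 0.64 and called. Cyp4f13 had a log2 fold change of -0.42 (edgeR adjusted p = 0.0845) and Cyp4f16 of 0.28. Whether the Cyp4f and Cyp4a genes differ in their response was not tested.

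Other single-gene subfamilies were scarce. Cyp4v3, a fatty acid hydroxylase, had a log2 fold change of 0.22 with 2.29 to 2.64 FPKM in WT and 2.11 to 3.60 FPKM in Trpm2-/- libraries. Cyp2r1, a vitamin D hydroxylase, had -0.37, and Cyp2u1, a hydroxylase of long fatty acids, had -0.11, which changed sign without WT replicate 3 or Trpm2-/- replicate 1 (0.18 in both cases). Cyp2t4 had 0.295 to 0.421 FPKM in WT and 0.503 to 0.871 FPKM in Trpm2-/- libraries (0.85, edgeR adjusted p = 0.232).

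**Figure D4:**
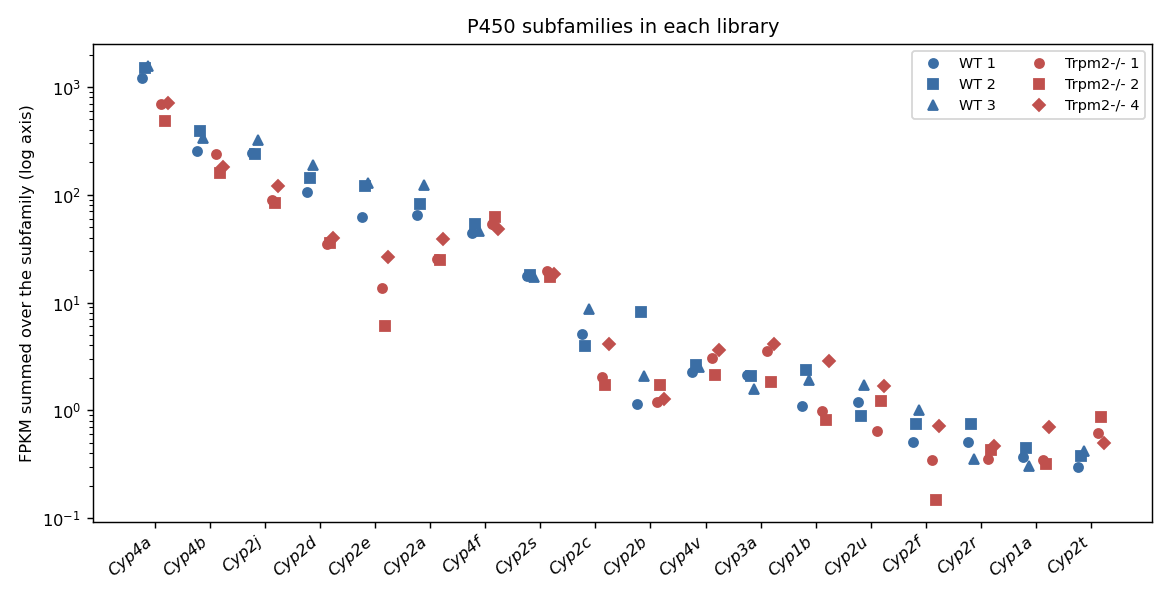
FPKM summed over each of the 18 subfamilies with a tested member, on a log axis, with a point for each library (blue for WT, red for Trpm2-/-). The 3 Trpm2-/- libraries lie below the 3 WT libraries for Cyp4a, Cyp4b, Cyp2j, Cyp2d, Cyp2e and Cyp2a and above them for the scarce Cyp2t, and the groups overlap for the other subfamilies.

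Of the 44 members that were not tested, 21 had 0 counts in all 6 libraries and 23 had some, with at most 55 counts in sum. These hold some of the P450 genes that are abundant in mouse liver. The 14 Cyp2c genes in a cluster of chromosome 19 had 0 to 3 counts per library between them, and 10 of the 14 had none. The 8 Cyp3a genes in a cluster of chromosome 5 had 0 to 5 counts per library, and 4 had none. Cyp1a2 had 3 counts in WT replicate 2 and 2 in Trpm2-/- replicate 2. A count of 0, as for Cyp2c29 in every library, allows a level of up to 0.184 to 0.205 CPM. Cyp4f14 was the untested member that changed with the choice of libraries, with 13, 10 and 20 counts in WT and 4, 1 and 1 in Trpm2-/- libraries, and it was tested and called lower without Trpm2-/- replicate 1.

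By family, summed FPKM fell from 640 ± 144 to 206 ± 42.1 for family 2 and from 1814 ± 256 to 886 ± 153 for family 4 (SD, n = 3). Family 2 thus made up 26.0% of the P450 transcript in WT and 18.8% in Trpm2-/- kidneys, and family 4 made up 73.8% and 80.8%. Family 1 (2.16 ± 0.667 and 2.01 ± 1.35 FPKM) and family 3 (1.92 ± 0.288 and 3.16 ± 1.19 FPKM) stayed below 1% of the sum in either genotype.

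The enzymes that supply P450s with electrons and haem were read from a list of 16 genes, all tested. Of these, 5 were called lower and 0 higher by edgeR, against 7.28% and 4.74% of all genes. At an unadjusted p under 0.05 edgeR had 2 of the 16 higher, and DESeq2 called 1 higher. P450 oxidoreductase (Por), the main electron donor, had 344 to 401 CPM in WT and 266 to 462 CPM in Trpm2-/- libraries, with a log2 fold change of -0.00 (standard error 0.199) whose sign depended on the scaling, being above 0 with DESeq2's size factors or upper-quartile scaling. Cytochrome b5 (Cyb5a) fell from 537, 653 and 760.0 CPM to 367, 351 and 358 CPM. Its log2 fold change was -0.86 (standard error 0.159, edgeR adjusted p = 0.00947), and the call was lost without WT replicate 3 (-0.74). Alas1, the first and rate-limiting enzyme of haem synthesis, had a log2 fold change of -0.77, Urod, a later enzyme of that pathway, of -0.60, and Cyb5b, the cytochrome b5 of the outer mitochondrial membrane, of -0.63. The calls of Alas1, Urod and Cyb5b were lost without WT replicate 2 (log2 fold changes of -0.74, -0.57 and -0.63) and without WT replicate 3 (-0.74, -0.54 and -0.65). Fech, the last enzyme of the pathway, had 0.49 and Hmox1, which breaks haem down, 0.50, and neither was called.

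Of 20 tested regulators of P450 genes, out of 23 listed, 3 were called lower and 1 higher, against 7.28% and 4.74% of all genes. The largest decrease was that of Hlf, a clock-output factor, with 44.5 to 55.5 CPM in WT and 10.2 to 22.8 CPM in Trpm2-/- libraries (log2 fold change -1.50, standard error 0.253, edgeR adjusted p = 0.00665). Its relative Tef had -0.72, with the call lost without WT replicate 2 (-0.72), WT replicate 3 (-0.64) or Trpm2-/- replicate 1 (-0.65). The glucocorticoid receptor gene Nr3c1 had 0.57, with the call lost without WT replicate 2 (0.53), WT replicate 3 (0.52) or Trpm2-/- replicate 1 (0.47). Ppara did not pass the test, with 16.4 to 30.2 CPM in WT and 84.5, 40.8 and 24.2 CPM in Trpm2-/- replicates 1, 2 and 4. Its log2 fold change was 0.98 (edgeR adjusted p = 0.146), fell to 0.36 without Trpm2-/- replicate 1, and was 1.32 and called without replicate 4. Ahr had 0.18 and Hnf4a -0.49, and neither was called.

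Targets of PPAR alpha outside the P450s were mixed. Of 15 tested, Acadm (-1.34), Acaa1a (-0.87) and Vnn1 (-0.75) were called lower and 0 higher by edgeR, against 7.28% and 4.74% of all genes. At an unadjusted p under 0.05 edgeR had 2 higher, Pdk4 (0.63, edgeR adjusted p = 0.0576) and Creb3l3 (1.23, edgeR adjusted p = 0.0514), and DESeq2 called 2 higher. Of 4 tested AHR targets, 2, Nqo1 (-0.78) and Gsta1 (-1.06), were called lower, against 7.28% of all genes. Tiparp had 0.93 (edgeR adjusted p = 0.0508). Tiparp was called higher by DESeq2 (adjusted p = 0.00625), with upper-quartile scaling and with protein-coding genes only, among other settings. The call of Gsta1 was lost when WT replicate 1 (-1.13), 2 (-1.17) or 3 (-0.88) or Trpm2-/- replicate 2 (-0.93) or 4 (-0.87) was left out.

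Among 11 tested epoxide hydrolases and eicosanoid enzymes, Ephx2 was called lower and Ptgs2 higher, against 7.28% and 4.74% of all genes. Ephx2, the soluble epoxide hydrolase that breaks down P450 epoxides of arachidonic acid, had 306, 338 and 386 CPM in WT and 195, 146 and 194 CPM in Trpm2-/- libraries (log2 fold change -0.95, standard error 0.163, edgeR adjusted p = 0.00699). Ephx1, the microsomal hydrolase, had -0.43 (edgeR adjusted p = 0.0691), and DESeq2 called it lower (adjusted p = 0.0141). Ptgs2, the inducible cyclooxygenase, had 6.91, 5.65 and 2.58 CPM in WT and 22.7, 14.4 and 17.2 CPM in Trpm2-/- libraries (1.84).

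**Figure D5:**
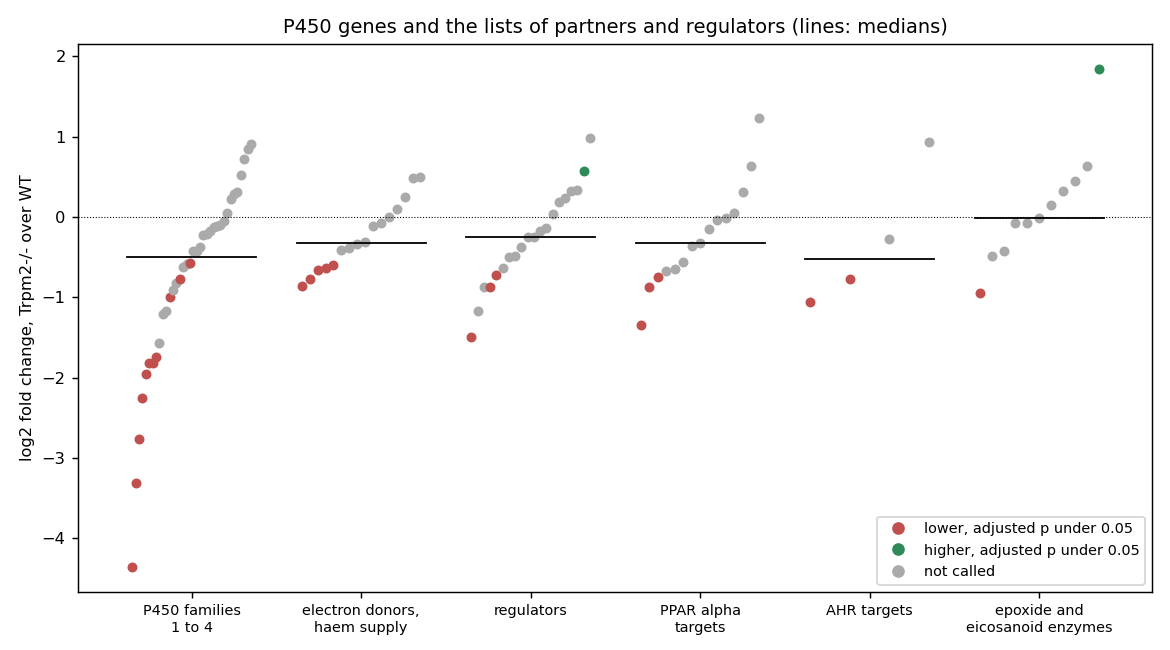
Log2 fold changes, Trpm2-/- over WT, of the tested P450 genes and of the tested genes of 5 lists of partners, regulators and targets, each point a gene, sorted within its list, with a black line at the list's median. The P450 genes reach lowest (-4.35) with a median of -0.50, and the medians of the other lists lie between -0.53 for AHR targets and -0.01 for epoxide and eicosanoid enzymes.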

How the data were processed

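The authors deposited whole-number counts of reads per gene, without normalization, and FPKM values that they computed from these counts, gene lengths and library totals, for the same 54532 genes in 6 kidney libraries. The study used Trizol for RNA, a NEBNext Ultra II kit for libraries and an Illumina HiSeq instrument. The submitters' processing notes name HISAT2, StringTie and mm9, but gene positions in the table equal those of GRCm38 (GENCODE release M21) for 53499 of 54532 genes and 72 of 80 members, so coordinates are given as GRCm38. Whether counting used strand is not given in the sources used here. Nothing states which mice shared a cage or a day, and p-values measure only the spread between these samples.

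Deposited counts were filtered with filterByExpr, normalised by TMM and tested with edgeR 4.0.16 (two-sided quasi-likelihood test, genotype only, R 4.3.3), with Benjamini-Hochberg adjustment over 15816 genes. The standard error of a log2 fold change is its size over the square root of F. On simulated counts the test was checked for recovery of known changes. Alternatives were DESeq2 1.42.0, limma 3.58.1 (voom, and log2(FPKM + 1) or log2(FPKM + 0.1)), other scalings and filters, protein-coding genes only, a replicate block, and each library left out. Shared 75-base windows come from GENCODE transcripts, and promoters from RefSeq (GRCm38.p6), which had 65 of 80 members; motifs were searched on both strands in 300 bases, 250 before and 50 after the start. No column of another sample was present.

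Members and lists were chosen with earlier results of these data known. Named were members called with at least 1 CPM, the most abundant tested gene of each subfamily, the 3 most abundant members, Cyp1a1, Cyp1b1, Cyp2e1, Cyp2j5, Cyp4a10, Cyp4a14 and Cyp4b1, and Por, Cyb5a, Ahr, Ppara and Ephx2 with up to 4 other genes of each list by smallest p. Other genes were named after their values were seen, as neighbours or copies of these, and so were Fech, Hmox1, Hnf4a, Pdk4 and the marker genes. Some genes of the lists are counted but not reported here by name.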

Additional observations from a re-analysis of the deposited data

How the results depend on the processing

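The 11 called members kept their direction in all 198 refits of their values and their call in 176, and 8 of them lost no call. In refits that removed no library, Cyp4a10 lost its call only with the replicate block (-0.91). Cyp4b1 lost it with the block (-0.69) and with limma on log2(FPKM + 1) (-0.75) or log2(FPKM + 0.1) (-0.75), and Cyp2d22 with 7 of these refits. The block takes its genotype effect from replicates 1 and 2 alone, because numbers 3 and 4 each occur in a single genotype. The number of members called was 9 to 19 over all settings. It was 19 (17 lower, 2 higher) with every gene of at least 1 count tested, where 2954 of 28884 genes were called. These 19 include Cyp2b10, which rested on a single library, at an edgeR adjusted p of 2.7e-05, against 0.172 with the default filter. With single libraries left out the number of members called was 9 to 15, and calls over all genes were 630 to 2059. Members past the threshold of the study were 9 to 16. Of the 5 partner, regulator and target lists, 16 genes were called, 30 (22 lower, 8 higher) with every gene of at least 1 count, and 8 to 19 with single libraries left out, lowest without WT replicate 3 (8) and WT replicate 2 (10). The cause was not tested. The log2 ratio of the summed FPKM of all members was -1.16 and ranged from -1.28 to -1.03 with single libraries left out.

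Replicate numbers 1 and 2 occur in both genotypes, but nothing pairs the mice. Numbers 3 and 4 each occur in a single genotype. Under the block, WT replicate 3 and Trpm2-/- replicate 4 therefore do not enter the estimated genotype difference. Deviations of same-numbered libraries correlated at 0.12 and 0.01. With the replicate block 11 members were called, 8 of them among the 11 without it (Cyp2a5, Cyp2c23 and Cyp4a12a were added), while the calls over all genes went from 1902 to 1002. In that fit the calls of Cyb5a, Alas1, Urod, Cyb5b, Nr3c1, Gsta1 and Cyp24a1 were lost and those of Ppara, Tiparp and Cyp7b1 were added. Cyp2a5, Cyp2c23, Cyp4a12a, Ppara and Tiparp were also called when only Trpm2-/- replicate 4 was left out.

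Signs turned for members and partners that were not called. Cyp1a1 was -0.28 with the block, -0.14 without both libraries with raised markers of other cells, and -0.18 to 0.57 with single libraries left out. The same range was -0.99 to 0.083 for Cyp1b1, -0.45 to 0.18 for Cyp2u1, -0.072 to 0.50 for Ahr and -0.18 to 0.20 for Por. Por was 0.0018 with DESeq2's size factors and with the DESeq2 test, 0.0025 with a mean of at least 1 CPM, 0.025 with upper-quartile scaling, 0.0093 without the mitochondrial genome, 0.13 with the block and 0.22 without both libraries. For summed FPKM the range of the log2 ratio was -0.17 to 0.48 for Cyp1a, -0.99 to 0.11 for Cyp1b and -0.44 to 0.20 for Cyp2u. With 3 mice a genotype, tested members under 1 FPKM had standard errors of 0.423 to 0.647, and differences of that size were not detectable.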

Other observations

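P450 genes of families above 4, which serve steroid, bile acid and vitamin metabolism, were outside the rule. Of 20 listed, 10 were tested, 1 was called lower and 1 higher, against 7.28% and 4.74% of all genes. Cyp27a1, a sterol and vitamin D hydroxylase of mitochondria, had 61.0, 89.4 and 85.9 CPM in WT and 33.8, 39.6 and 49.1 CPM in Trpm2-/- libraries (log2 fold change -0.95, standard error 0.189, edgeR adjusted p = 0.0130), and its call was lost without WT replicate 2 (-0.85) or WT replicate 3 (-0.89). Cyp24a1, which breaks down active vitamin D, had 165, 103 and 84.5 CPM in WT and 235, 189 and 223 CPM in Trpm2-/- libraries (0.88, standard error 0.231, edgeR adjusted p = 0.0382). The call of Cyp24a1 was lost without WT replicate 2 (0.79), WT replicate 3 (0.68), Trpm2-/- replicate 1 (0.81) or Trpm2-/- replicate 4 (0.86). Cyp7b1, an oxysterol hydroxylase, had 79.3, 82.6 and 90.7 CPM in WT and 14.7, 51.2 and 41.5 CPM in Trpm2-/- libraries (-1.24, edgeR adjusted p = 0.0505). With all libraries, Cyp7b1 was called lower by DESeq2 (adjusted p = 0.00237) and limma-voom (adjusted p = 0.0348). By edgeR it was called without Trpm2-/- replicate 1 (-0.86) or Trpm2-/- replicate 2 (-1.59). Cyp26b1, a retinoic acid hydroxylase, had 4.0 to 6.81 CPM in WT libraries and 5.69, 8.06 and 22.5 CPM in Trpm2-/- replicates 1, 2 and 4.

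The table also held 30 pseudogene or antisense rows with a P450 name of families 1 to 4, of which 19 had 0 counts and 2 were tested. Cyp4f41-ps had a log2 fold change of -0.85 and Cyp2d37-ps of -0.77, with overlapping groups and edgeR adjusted p of 0.284 and 0.565.

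Of the other marker lists, 1 of 4 tested markers was called lower for the thick ascending limb, 2 of 4 for the collecting duct, 1 of 5 for macrophages, 2 of 5 for urothelium, 1 of 3 for fat cells and 2 of 5 for hepatocytes, and 0 for the distal convoluted tubule, intercalated cells, podocytes, endothelium, fibroblasts and neutrophils by edgeR. Of the sex list, 1 of 4 tested genes was called higher. Over all genes tested, 7.28% were called lower and 4.74% higher.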
